A study of Homo sapiens with 6 samples.

Results

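The genes described here are 10 regulators of the passage from G1 into S phase, namely the D cyclins CCND2 and CCND3, their kinases CDK4 and CDK6, the INK4 inhibitors CDKN2A, CDKN2B, CDKN2C and CDKN2D, the CIP/KIP inhibitor CDKN1B and the pocket protein RB1. They were chosen by name, as 10 of 19721 genes that could be named on the array. Their probes were the Agilent catalogue probes whose RefSeq accession belongs to one of these genes, which gave 12 of 34134 catalogue probes, and 10 of the 12, from 9 genes, passed the filter on dim probes and were tested among 27427 probes. Expression was measured in REH, a cell line of human acute lymphoblastic leukemia of B-cell precursors (BCP-ALL) with the ETV6/RUNX1 fusion, on 6 one-color arrays. In 3 arrays, called knockdown, the cells had received a short hairpin RNA (shRNA) against the ETV6/RUNX1 fusion, and in the other 3, called control, a non-targeting shRNA. Per the study's methods, both hairpins were ETV6 hairpins delivered by lentivirus with a GFP marker, only one of them hits the fusion transcript, the GFP-positive cells of both groups were sorted, and the replicates are biological triplicates. All arrays come from this 1 line, which has lost its other ETV6 allele.

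D cyclins bind CDK4 or CDK6, and the resulting kinases phosphorylate RB1. Unphosphorylated RB1 holds E2F transcription factors in check, and its phosphorylation releases the genes of DNA replication that E2F drives. INK4 proteins block CDK4 and CDK6 directly, whereas CDKN1B, also called p27, binds cyclin and kinase complexes and mainly restrains CDK2. In BCP-ALL the CDKN2A and CDKN2B locus on 9p21 is a frequent site of deletion.

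Values are normalized intensities on a generalised log2 scale, and differences are log2 fold changes of knockdown against control. A probe is said to be called when limma gave an adjusted p under 0.05 over all tested probes. Across these probes 1.72% were called, 1.27% lower and 0.448% higher in knockdown, and the 3 control and 3 knockdown values did not overlap for 19.0%. With the replicate number as a block 3.74% were called. Scaled on the spike-in probes, the median of all probes moved by 0.35 and the split turned from 348 lower and 123 higher to 160 lower and 889 higher, so that every direction below is relative to the bulk of the array. Under this scaling limma gave all probes the same spread, so its p-values are not comparable with those of the other fits. For 3 arrays against 3 the smallest two-sided p of an exact permutation test is 0.1, so the calls depend on limma's pooling of the spread over probes, and the few arrays limit how precise any value is. Median raw intensity per array was 66 to 75 against 42.3 to 48.0 for the negative controls, and 45.9% to 51.0% of all probes carried the scanner software's flag for signal well above background. All arrays lay on 1 slide, with control replicates 1 and 2 in one row and control replicate 3 and the 3 knockdown arrays in the other.

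The targeted gene was examined first. The study itself assessed the fusion protein and transcript after knockdown by Western blot and RT-qPCR. The ETV6 probe above background, A_33_P3356325, measured 7.92, 8.05 and 8.37 in control and 7.50, 7.45 and 7.29 in knockdown. The groups did not overlap, and the difference of -0.70 on the log2 scale was not called (SE 0.14, adjusted p from limma 0.0521). Where this probe lies relative to the fused portion was not analysed here, and the other ETV6 probe, A_33_P3210343, was at background on all arrays. Of 17 probes for B-cell precursor markers such as CD79A, IGLL1 and RAG1, 15 were well above background on all arrays, and both VPREB1 probes were not.

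Among the 10 tested probes, 1 was called, that of CCND2, which was lower in knockdown. For 3 of the 10 the groups did not overlap, CCND2 on the lower side (9.96% of all tested probes) and CDKN2D and CDK6 on the higher side (9.0% of all). In all, 7 probes were higher and 3 lower (9 and 1 under spike-in scaling), with a median log2 fold change of 0.09 beside -0.002 over all tested probes.

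**Figure D1:**
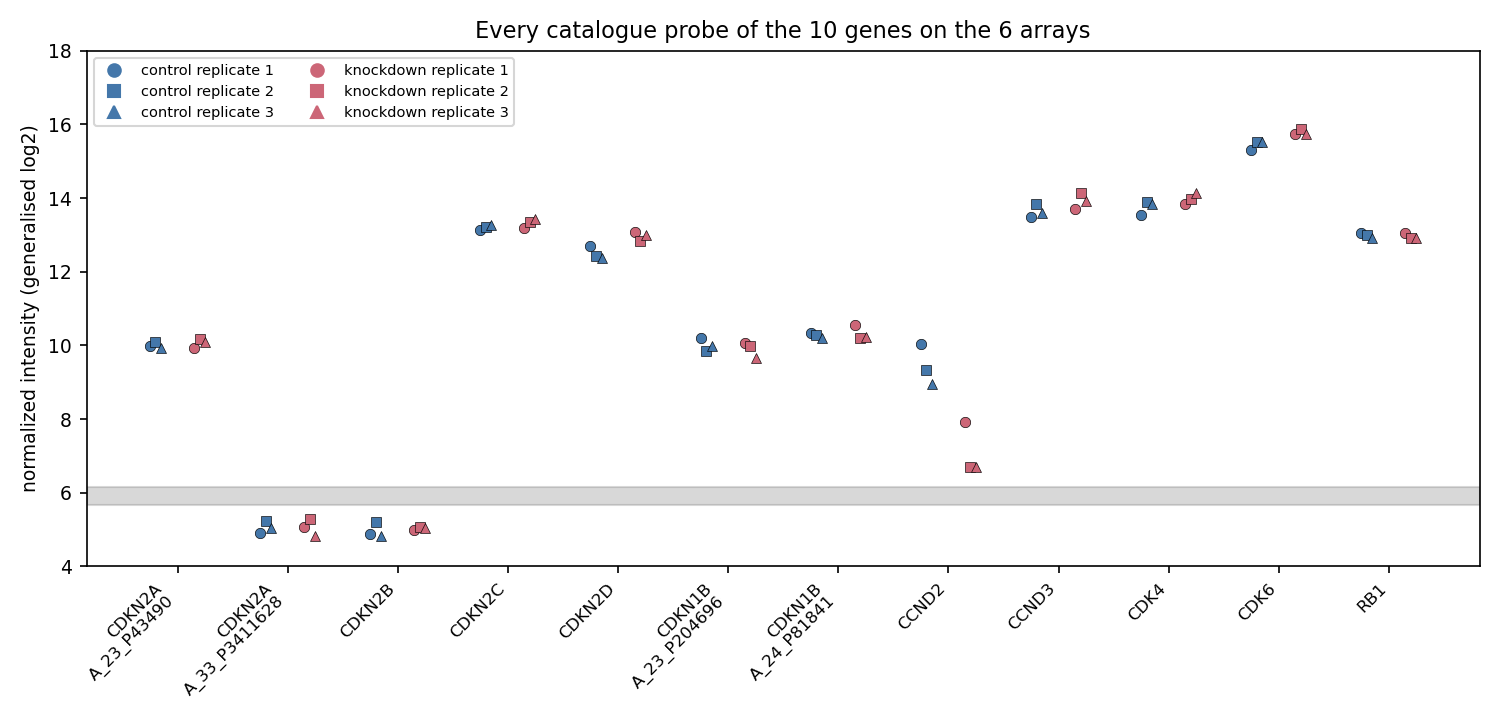
Normalized intensity (generalised log2) of all 12 probes of the 10 genes, 1 point per array, with control in blue, knockdown in red and the replicate number as the marker shape. The grey band spans the background thresholds of the 6 arrays, and the second CDKN2A probe and CDKN2B lie below it on all arrays, while the CCND2 points of the 2 groups are apart. Levels of different probes are not comparable with each other.

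CCND2, the cyclin D2 gene, was the member that fell. Its probe A_24_P278747, designed on NM_001759, measured 10.05, 9.32 and 8.95 in control and 7.93, 6.70 and 6.70 in knockdown. Every control array lay above every knockdown array, and the spread within each group was wide, with replicate 1 the highest of both groups. The means were 9.44 ± 0.56 (SD, n = 3) and 7.11 ± 0.71, a log2 fold change of -2.33 (SE 0.38, 95% interval -3.21 to -1.46), or 5.04-fold lower (2.74 to 9.27). The limma adjusted p was 0.0248, and an exact permutation of the arrays gave p = 0.1, its lower limit. Within replicate numbers the differences were -2.12, -2.63 and -2.26, lower in 3 of 3 pairs. Raw spot intensities were 1022, 654.5 and 544 in control and 298, 116.5 and 113.5 in knockdown, all flagged well above background. Only 11 of the tested probes (0.0401%) had a log2 fold change as low or lower.

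The direction of CCND2 was kept in all 17 alternative analyses, with log2 fold changes from -2.75 to -1.85, and the call was kept in 9. It was lost with slide row as a term (-1.85, adjusted p = 0.284), where only control replicate 3 shares a row with the knockdown arrays, on the processed signal (0.0597), without a filter (0.0835), with an intensity trend and robust prior (0.0755), and when any of 4 single arrays was left out, namely replicate 1 of control (0.0589), replicate 2 of control (0.0946), replicate 2 of knockdown (0.107) and replicate 3 of knockdown (0.123).

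CCND3, the cyclin D3 gene, was not called. Its probe A_23_P361773 (NM_001760) measured 13.48, 13.85 and 13.59 in control and 13.70, 14.14 and 13.91 in knockdown, higher in 3 of 3 pairs with overlapping groups. The log2 fold change was 0.28 (SE 0.15, 95% interval -0.06 to 0.62, adjusted p = 0.495). CCND1, the cyclin D1 gene, was dim, with raw intensities from 60.4 to 68.6. Its probe was flagged well above background on 2 arrays and passed the threshold on 1, and was not tested.

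The kinases that D cyclins activate were both bright. The CDK6 probe A_24_P166663 (NM_001259) measured 15.32, 15.53 and 15.52 in control and 15.74, 15.88 and 15.75 in knockdown. The groups did not overlap, but the log2 fold change of 0.33 (SE 0.10, 95% interval 0.09 to 0.58) was not called (adjusted p = 0.223). The CDK4 probe A_23_P24997 (NM_000075) measured 13.55, 13.90 and 13.83 in control and 13.84, 13.99 and 14.13 in knockdown. It was higher in 3 of 3 pairs with overlapping groups, and its log2 fold change was 0.22 (SE 0.13, 95% interval -0.08 to 0.52, adjusted p = 0.543).

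**Figure D2:**
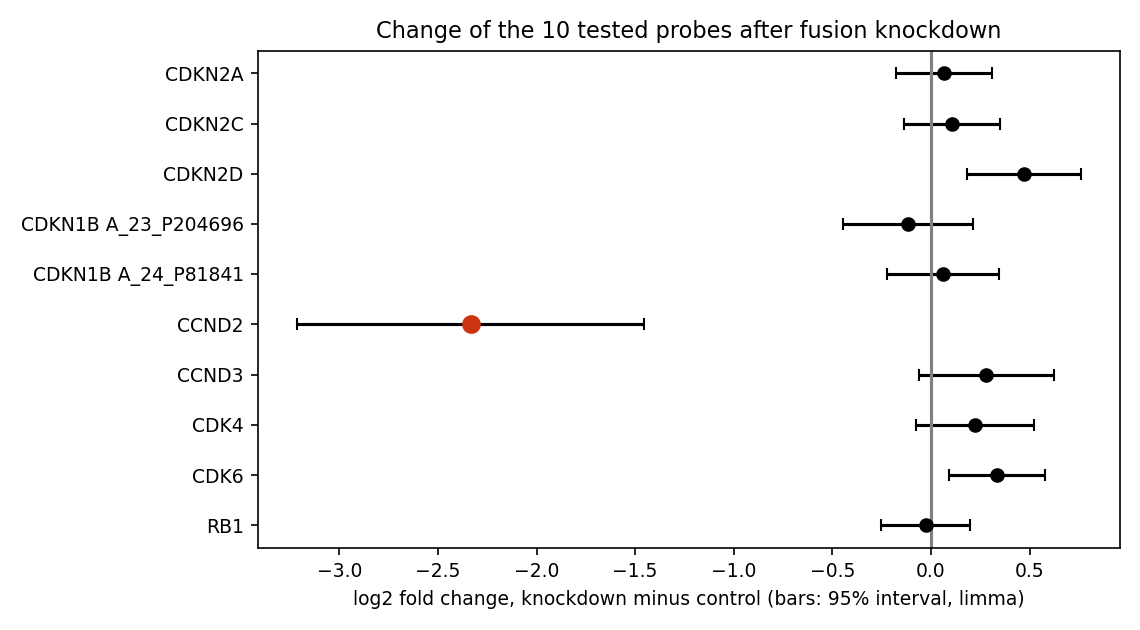
Log2 fold change (knockdown minus control) of the 10 tested probes, with 95% intervals from limma. The called probe, CCND2, is in red at -2.33, and the intervals of CDKN2D and CDK6 lie above 0 although neither passed the adjusted threshold.

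Next, the INK4 inhibitors were examined. Signal over background differed between the probes of the 9p21 genes. The CDKN2A probe A_23_P43490, designed on NM_058197, was well above background on all arrays, with raw intensities from 971 to 1157 and normalized values 3.79 to 4.44 above the threshold. It measured 9.97, 10.09 and 9.93 in control and 9.94, 10.18 and 10.08 in knockdown, and the groups overlapped (log2 fold change 0.07, SE 0.11, 95% interval -0.18 to 0.31, adjusted p = 0.846). The other CDKN2A probe, A_33_P3411628, designed on NM_000077, had raw intensities from 44 to 56 and was over the threshold on 0 of 6 arrays. CDKN2B, which encodes p15, was likewise at background with A_23_P216812 (NM_004936), with raw intensities from 43.5 to 52 and 0 of 6 arrays over the threshold. No change could be tested for these 2 probes, and where each probe lies in its gene was not analysed here.

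The promoters of these genes are shown as background. Whether they bear on the difference between the probes was not tested. The sequences are the 250 bases before the start in RefSeq on GRCh38.p14, on the minus strand, written 5′ to 3′, with GC boxes (GGGCGG, or CCGCCC on the other strand) in capitals. CDKN2A has 2 such windows, an upstream one from which the ARF transcript starts, at chr9:21995325-21995574, and the one of p16INK4a, at chr9:21974858-21975107. That of CDKN2B lies at chr9:22009306-22009555.
CDKN2A upstream: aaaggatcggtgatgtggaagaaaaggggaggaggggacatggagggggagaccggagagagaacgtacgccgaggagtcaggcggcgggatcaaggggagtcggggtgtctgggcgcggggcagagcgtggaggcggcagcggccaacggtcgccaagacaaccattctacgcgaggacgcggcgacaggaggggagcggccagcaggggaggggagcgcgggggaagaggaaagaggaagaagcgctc
CDKN2A p16: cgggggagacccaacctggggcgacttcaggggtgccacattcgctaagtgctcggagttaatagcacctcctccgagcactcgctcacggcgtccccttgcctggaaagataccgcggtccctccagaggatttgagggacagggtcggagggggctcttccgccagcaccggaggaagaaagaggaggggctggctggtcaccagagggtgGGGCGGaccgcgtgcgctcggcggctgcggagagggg
CDKN2B: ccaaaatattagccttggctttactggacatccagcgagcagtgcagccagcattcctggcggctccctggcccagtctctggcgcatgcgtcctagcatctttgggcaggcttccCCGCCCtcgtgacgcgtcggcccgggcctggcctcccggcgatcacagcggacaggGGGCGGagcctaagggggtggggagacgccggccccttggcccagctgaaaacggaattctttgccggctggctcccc
The windows hold 24, 20 and 18 CpG dinucleotides, beside a median of 11 over all 35116 promoter windows, and 0, 1 and 2 GC boxes. Across the 15 windows of the 9 members with an entry, all but CCND2, 10 hold a GC box, against 42.6% of all windows. The RUNX core letters TGTGGT or ACCACA were in 0 of these 15 windows and in 11.0% of all windows. The E2F letters TTTGGCGC or TTTCCCGC, or their complements GCGCCAAA and GCGGGAAA, were in 0 of the 15 and in 1.93% of all windows.

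Neighbouring genes on 9p21 were at background. All 6 probes for MTAP, the non-coding CDKN2B-AS1, DMRTA1 and KLHL9 were below the threshold and not well above background on every array. In the order of protein-coding genes, MTAP is 1, DMRTA1 2 and KLHL9 8 places from CDKN2A. A_23_P43490 was thus the only one of the 9 probes of this locus above background, and whether its signal comes from CDKN2A alone was not tested.

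**Figure D3:**
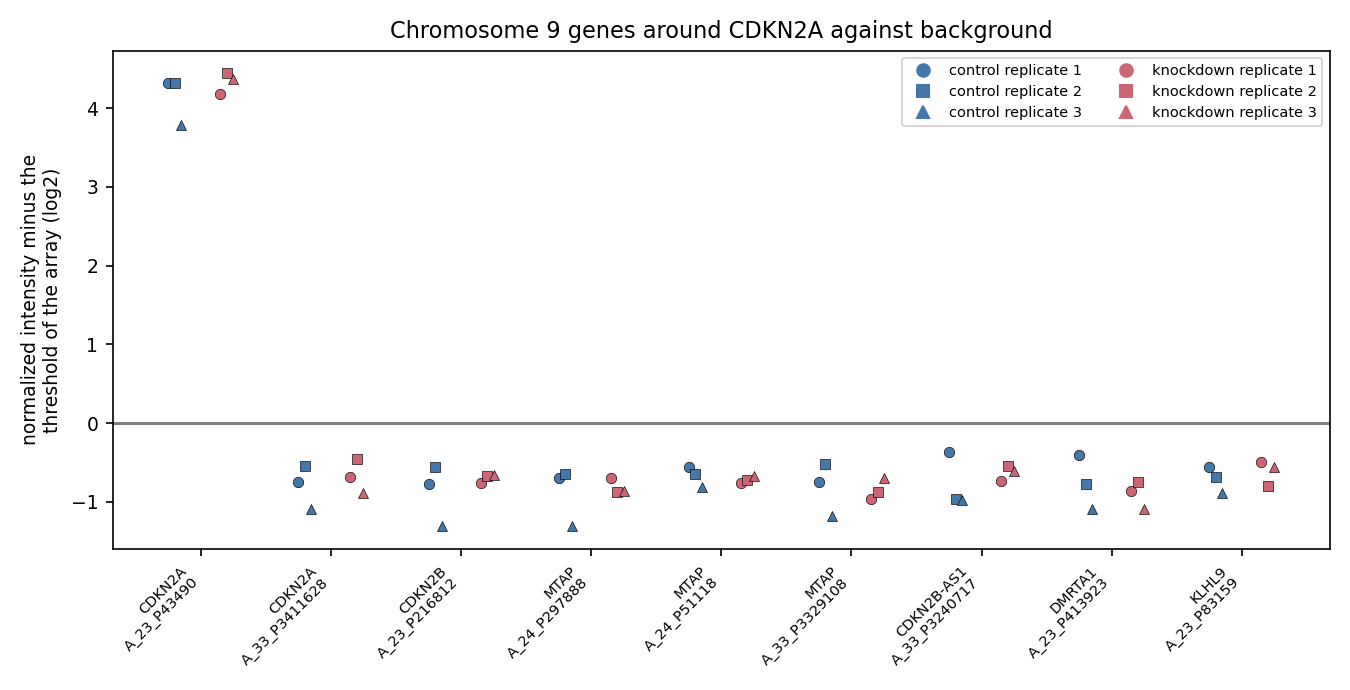
Normalized intensity minus the threshold of its own array (log2) for the 9 probes of CDKN2A, CDKN2B and 4 neighbouring genes, 1 point per array with control in blue and knockdown in red. The line at 0 is the threshold, and the points of A_23_P43490 lie 3.79 to 4.44 above it while the other 8 probes lie below it.

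CDKN2C and CDKN2D, the p18 and p19 genes, lie on chromosomes 1 and 19 and were far above background. The CDKN2D probe A_23_P89941 (NM_001800) measured 12.70, 12.43 and 12.37 in control and 13.09, 12.83 and 13.002 in knockdown. Every knockdown array lay above every control array and the probe was higher in 3 of 3 pairs. The means were 12.50 ± 0.18 and 12.97 ± 0.13, a log2 fold change of 0.47 (SE 0.12, 95% interval 0.18 to 0.76) that was not called (adjusted p = 0.143). The call was made in 1 of 17 alternatives, spike-in scaling (0.83, adjusted p = 0.0272), where limma gave all probes the same spread. The CDKN2C probe A_33_P3292540 (NM_078626) measured 13.13, 13.23 and 13.27 in control and 13.18, 13.34 and 13.42 in knockdown, with overlapping groups and a log2 fold change of 0.11 (SE 0.11, 95% interval -0.13 to 0.35, adjusted p = 0.727).

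CDKN1B lies on 12p13, on the same chromosome arm as ETV6, 8 places away in the order of protein-coding genes. Its 2 probes, both designed on NM_004064, gave values of either sign close to 0. A_23_P204696 measured 10.20, 9.85 and 9.99 in control and 10.06, 9.97 and 9.65 in knockdown (log2 fold change -0.12, SE 0.14, 95% interval -0.45 to 0.22, adjusted p = 0.795). A_24_P81841 measured 10.34, 10.28 and 10.20 in control and 10.57, 10.20 and 10.24 in knockdown (0.06, SE 0.12, 95% interval -0.22 to 0.35, adjusted p = 0.880). The groups overlapped for both probes. Among 9 tested probes of the 12p13 neighbours ETV6, LRP6, DUSP16, CREBL2, GPR19, APOLD1, DDX47 and EMP1, 1 was called, against 1.72% of all tested probes. It was that of the membrane protein EMP1 (-1.23, SE 0.17, adjusted p = 0.0109). For 3 of the 9 the groups did not overlap, against 19.0% of all, namely ETV6, LRP6 and EMP1, each lower in knockdown. BCL2L14 was at background and not tested.

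RB1, the pocket protein that the D cyclin kinases phosphorylate, gave the smallest difference of the 10 tested probes. A_23_P204850 (NM_000321) measured 13.05, 13.005 and 12.92 in control and 13.06, 12.92 and 12.91 in knockdown. The groups overlapped, and the log2 fold change was -0.03 (SE 0.10, 95% interval -0.25 to 0.20, adjusted p = 0.937). Its sign turned under 4 of 17 alternatives.

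The wider G1 to S pathway was then described with 52 other genes, of which 51 had a tested probe. Of their 66 tested probes 1 was called, lower in knockdown, against 1.72% of all probes. In all, 39 were higher and 27 lower (64 and 2 under spike-in scaling), the median log2 fold change was 0.06, and the groups did not overlap for 9 of 66, against 19.0% of all probes.

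The called gene was FBXW7, whose product is the F-box protein that marks cyclin E and other proteins for degradation. Its probe A_24_P174613 (NM_033632) measured 12.05, 11.86 and 11.79 in control and 11.16, 10.704 and 10.79 in knockdown. Every control array lay above every knockdown array and the probe was lower in 3 of 3 pairs, with differences of -0.89, -1.16 and -0.998. The means were 11.90 ± 0.13 and 10.89 ± 0.24, a log2 fold change of -1.01 (SE 0.14, 95% interval -1.34 to -0.68), or 2.02-fold lower (1.61 to 2.54), with adjusted p = 0.0135. A change as low or lower was found for 203 of the tested probes (0.74%). The direction was kept in 17 alternatives and the call in 12. It was lost under spike-in scaling (adjusted p = 0.0991, with the same spread for all probes), with slide row as a term (0.176), and when replicate 2 of control (0.0640), replicate 2 of knockdown (0.0633) or replicate 3 of knockdown (0.0781) was left out.

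None of the other lists of the pathway held a called probe. Of the degradation genes, 10 of 15 probes were lower, FBXW7 included (1 of 15 under spike-in scaling), and SKP2, the F-box protein for p27, was at -0.003 (adjusted p = 0.994). Among the E2F and DP factors 8 of 15 probes were lower (1 of 15 under spike-in scaling). All 3 probes of E2F6, a repressive E2F, were lower with groups that did not overlap, at -0.18, -0.24 and -0.40 (adjusted p = 0.510, 0.405 and 0.248), but 2 of the 3 were higher under spike-in scaling. For the other G1 cyclins and CDK2 the largest difference was 0.27 for CDK2 (adjusted p = 0.655), and the CCNE1 probe was at 0.05. CDKN1A, the p21 gene, was at -0.11 and CDKN1C, the p57 gene, at 0.09. For the pocket proteins RBL1 and RBL2, the largest value was 0.08 for RBL1, and for CDK activation 0.14 for CDC37, a chaperone partner of CDK4.

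**Figure D4:**
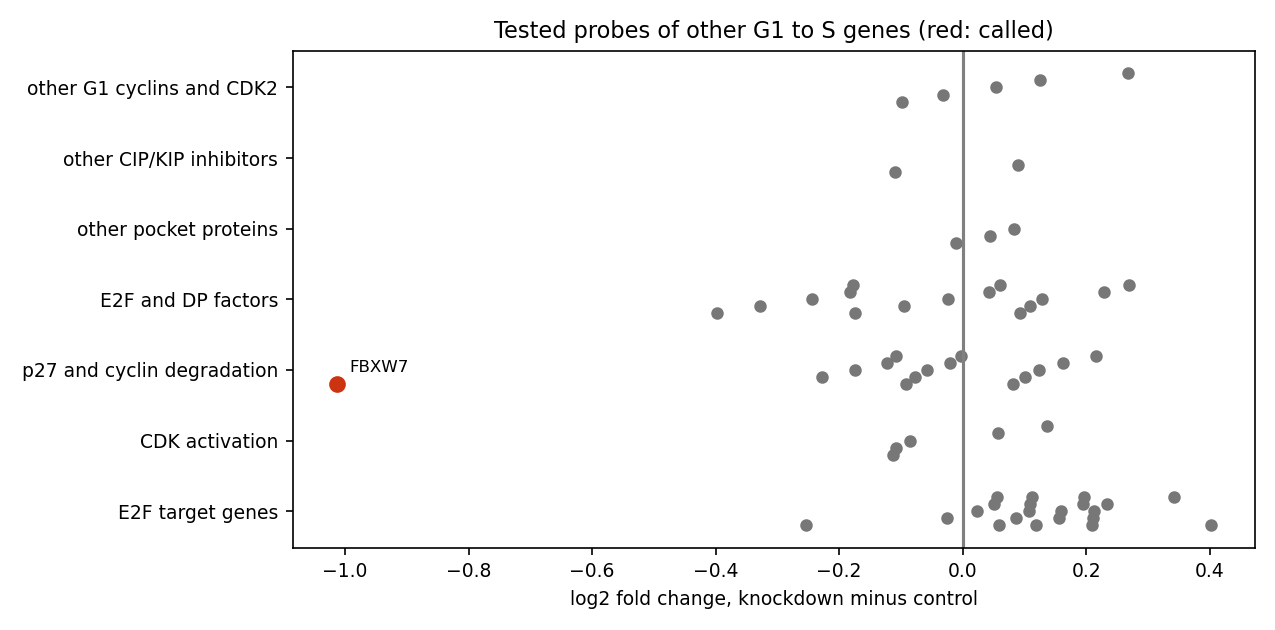
Log2 fold change (knockdown minus control) of the 66 tested probes of other G1 to S genes, 1 point per probe in 7 lists. FBXW7 at -1.01 is the 1 called probe, in red, and the other probes lie between -0.40 and 0.40.

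E2F target genes, whose products act in DNA replication and the cell cycle, were mostly higher in knockdown without any being called. Of 21 probes of 17 genes, 19 were higher and 2 lower (21 and 0 under spike-in scaling), with a median log2 fold change of 0.12 and a range from -0.25 for the mitotic kinase CDK1 (adjusted p = 0.618) to 0.40 for the helicase subunit MCM5 (adjusted p = 0.368). That MCM5 probe, A_23_P132277, measured 13.29, 13.60 and 13.17 in control and 13.45, 13.91 and 13.90 in knockdown, and the groups overlapped. For 1 of 21 probes, that of the licensing factor CDT1, the groups did not overlap. Differences between replicates were larger than this: replicate 1 was the lowest of both groups for 17 of 21 probes, against 20.6% of all tested probes. The value of replicate 1 minus that of the other replicates had a median of -0.36 in control and -0.44 in knockdown.

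**Figure D5:**
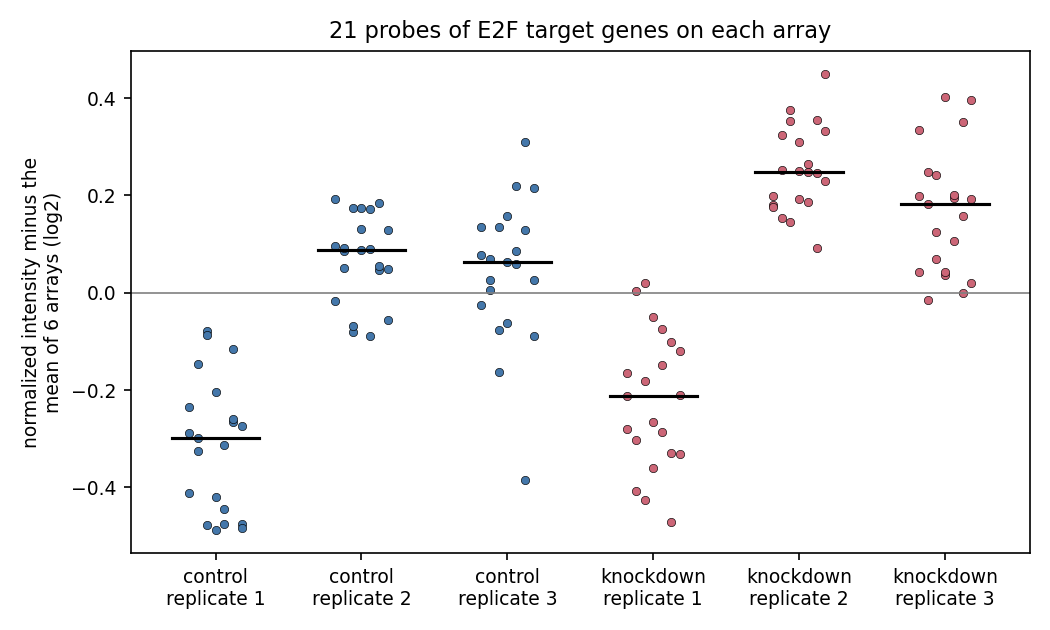
Normalized intensity minus the mean of the 6 arrays (log2) for the 21 probes of E2F target genes, 1 point per probe, with the median of each array as a black bar. The medians are -0.30 and -0.21 on replicate 1 of control and knockdown, and 0.06 to 0.25 on the other 4 arrays.

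CCND2 had the opposite order of replicates, with replicate 1 the highest of both groups, as had 23.8% of all tested probes. The 5 gene symbols whose probe followed CCND2 most closely over the 6 arrays were CARD6, CSRNP1, BCAS1, GARIN1A and CSF3R, with Pearson's r of 0.996 to 0.997. These probes share the arrays, the group difference and the position of replicate 1. Their log2 fold changes were -0.49, -0.30, -0.70, -0.34 and -1.58, all smaller in size than that of CCND2, and BCAS1 and CSF3R were called (adjusted p = 0.0384 for both). In knockdown CARD6 and GARIN1A averaged 5.83 and 5.86, where the array thresholds were 5.65 to 6.15, so their changes can be understated.

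Markers of cell type were set beside these results. The mean normalized value of the 17 B-cell precursor probes was 11.62 to 11.70 in control and 11.80 to 11.86 in knockdown. Of the 15 tested ones 12 were higher and 3 lower, the latter being RAG2 (-0.44), RAG1 (-0.10) and PAX5 (-0.04). The groups did not overlap for 6 of the 15, against 19.0% of all tested probes. RAG2 was on the lower side (9.96% of all), and CD79B, CD22, both IGLL1 probes and the MME probe A_24_P260101 (0.59) on the higher side (9.0% of all). None of these probes was called, but 4 were called higher with the replicate block, against 362 of all 27427 tested probes (3.74% in either direction). The 4 were CD79B (0.55, adjusted p = 0.0377), CD22 (0.67, adjusted p = 0.0260) and both probes of IGLL1 (0.53 and 0.68, adjusted p = 0.0382 and 0.0131). The mean normalized value of the 3 myeloid probes was 9.60 to 9.73 in control and 8.83 to 9.07 in knockdown. Of these, MPO, the granule enzyme of myeloid cells, was called (-2.02, adjusted p = 0.00107) and CD14 (-0.13) and CSF1R (-0.06) were not, with overlapping groups for both. T-cell probes averaged 5.67 to 5.84 in control and 5.79 to 6.32 in knockdown, erythroid probes 5.92 to 6.12 and 5.95 to 6.05, and fibroblast or epithelial probes 6.34 to 6.47 and 6.37 to 6.53, with ranges of control and knockdown that overlapped for all 3 lists and no probe called. For 1 of the 3 tested T-cell probes, CD3E (0.32), the groups did not overlap, against 19.0% of all tested probes, and it was over the threshold on 2 of 6 arrays. CD2 (0.69, overlapping groups) measured 7.37 on knockdown replicate 2 and 5.38 to 5.92 on the other arrays. CD3G, HBB, COL1A2 and EPCAM were at background on all arrays. The part of these markers in the CCND2 difference was not tested, and in such bulk RNA fewer cells of a type and less RNA per cell cannot be told apart.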

How the data were processed

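Total RNA of 6 REH samples was labelled with Cy3 in 1 color, per the labels. The authors extracted spot intensities with Agilent Feature Extraction 10.7.1.1 on an hg19 array design, per the file headers. The deposited files give median and processed intensity per spot and flags, not normalized between arrays, and a table of the authors' normalized log2 values for 27869 probes. Correlations of the values computed here with that table were 0.99904 to 0.99969 across probes of single arrays.

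The VSN model (an affine calibration and an inverse hyperbolic sine, maximum likelihood, 0.9 quantile of least squares kept) was written anew and run on the median spot intensity, where the design had planned the raw spot intensity without naming mean or median. Spots flagged as outliers were removed, none was saturated, and repeated spots of a probe were averaged. Probes were kept where the normalized value was over 1.1 times that of the 0.95 quantile of 308 negative controls on 2 of 3 arrays of a group, and tested where measured on all 6 arrays. The scale of this threshold was chosen after the values were seen. The fit was limma 3.58.1 in R 4.3.3 (lmFit, eBayes, two-sided), with Benjamini-Hochberg adjustment over 27427 probes and no block. Normalization and test were also run on simulated data with independent noise on each array. That simulation held neither the pairing of replicates nor the slide rows, so it cannot speak to their effect on the calls.

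Accessions named 25728 of 34134 catalogue probes (75.4%) through a RefSeq table. Probe coordinates were not used. Replicate numbers pair the samples: deviations from group means correlated at 0.426, 0.287 and 0.203 between same-numbered arrays, and every array correlated best with its own number. Named were all members, called genes and otherwise the largest change of each pathway list, neighbours on 9p21 and 12p13, and the 5 probes most like the member of lowest p, beside SKP2, CCND1, CCNE1, CDKN1C, CDK1, RBL2, CDT1, the E2F6 probes and markers, which were chosen after their values were seen. One planned B-cell marker is not reported here. Members and lists were chosen with earlier results of these data known. Alternatives were other normalizations, scaling, filters, tests, a replicate block, slide row, and leaving out each array.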

Additional observations from a re-analysis of the deposited data

How the results depend on the processing

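Over 17 alternatives, 8 of 170 values of the member probes changed sign and 1 gained a call. CDKN1B A_23_P204696 turned to 0.24 under spike-in scaling and ranged from -0.20 to 0.0064 when single arrays were left out (0.0064 without knockdown replicate 3), and A_24_P81841 was -0.027 with probes of a gene averaged and -0.053 to 0.13 with single arrays left out. RB1 was 0.020 on the processed signal, 0.33 under spike-in scaling, 0.047 with slide row as a term and -0.075 to 0.0033 with single arrays left out (0.0033 without control replicate 1). Signs of the other members and FBXW7 did not change in any alternative run. The number of member probes called was 0 on the processed signal, with slide row, with a robust prior and intensity trend and without a filter, 2 under spike-in scaling, and 0 to 1 with single arrays left out. For the pathway it was 0 under spike-in scaling and slide row and 0 to 1 with single arrays left out. Over all tested probes 471 were called, beside 1049 under spike-in scaling (with the same spread for all probes), 223 without a filter, 236 with slide row (216 lower, 20 higher) and 190 to 561 with single arrays left out. With the replicate block 1025 were called (663 lower, 362 higher), and the block changed no call of a member or of the pathway genes, but added 4 B-cell marker probes. The cause of these changes was not tested. A threshold on the linear scale was added after seeing the data. On this generalised log2 scale changes of dim probes are understated, and CDKN2B and the second CDKN2A probe gave no signal over background in which a change could be seen.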
